A study of Mus musculus with 45 samples.

Results

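The genes studied here encode the nuclear subunits of oxidative phosphorylation, and they were followed in the uterus of wildtype (WT) and Plag1 knockout (Plag1KO or KO) mice. Members were all rows of the count table whose symbols begin with Nduf followed by a, b, c, s or v and a digit, with Uqcr, with Cox and a digit from 4 to 8, or with Atp5, or are Sdha, Sdhb, Sdhc or Sdhd. The rule found 84 of 24422 gene symbols, of which 35 belong to complex I, 4 to complex II, 8 to complex III, 20 to complex IV and 17 to complex V. Ndufa4 and Ndufa4l2 were counted with complex IV, where the Ndufa4 protein is now placed, and Cox7a2l, Atp5s and Atp5sl, which are not subunits in the strict sense, were kept as associated factors.

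Oxidative phosphorylation is carried out in the inner mitochondrial membrane. Complexes I and II pass electrons from NADH and succinate to ubiquinone, complex III passes them to cytochrome c and complex IV passes them to oxygen, while complexes I, III and IV pump protons that complex V uses to make ATP. Most subunits are encoded in the nucleus, and several small subunits of complex IV exist as a ubiquitous (liver) isoform and an isoform typical of heart and skeletal muscle. The subunits encoded in mitochondrial DNA were not analysed here.

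The samples came from sexually mature CD-1 females, either WT or homozygous for a Plag1 allele in which lacZ replaces the open reading frame, with 7 mice per genotype. All 14 mice, WT included, had been superovulated with 5 IU of PMS and then 5 IU of hCG, and uteri were taken on the day after hCG. From each mouse a whole piece of horn (uterus), the scraped mucosa (endometrium) and the remaining wall (myometrium) were sequenced with STRT, a method that counts molecules by a tag at the 5′ end of each transcript. This gave 6 groups of 7 samples, with all 42 samples from the same 14 animals. Since each transcript is tagged once at its start, counts do not scale with transcript length, and CPM values (counts relative to library size, scaled with TMM factors) are compared between genes below.

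Samples held 256298 to 2431043 gene counts. The floor was set at 3 counts, taken as the most that a sample with 0 counts of a gene still allows. It corresponded to 1.23 to 11.7 CPM. Plag1 had a count in 2 of 21 WT samples and 5 of 21 KO samples, never above 2 CPM, and could not check the genotype labels. The layers matched their labels: all 8 epithelial markers (Krt8, Krt18, Epcam and others) were higher and all 8 smooth muscle markers (Acta2, Myh11, Des and others) were lower in endometrium (edgeR, adjusted p under 0.05, both genotypes). Endometrium of WT mouse 3 and of KO mouse 13 held a summed smooth muscle marker level of 13600 and 14130 CPM, whereas the other endometrium samples reached at most 3660 and 1281 CPM. Without these 2 samples, 29 rather than 28 members differed between the layers in the fit over both genotypes, and 16 and 14 did so in WT and KO, as with them. Of all genes, 4099 of 14314, 1786 of 13227 and 2547 of 12969 were called in the same fits.

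The members were expressed over a wide range. Averaged over 42 samples, 14 members were at or above 1000 CPM, 53 were between 100 and 1000 CPM, 12 were between 10 and 100 CPM and 5 were below 10 CPM. Cox8a, a small ubiquitous subunit of complex IV, was the most abundant at 6035 CPM and accounted for 12.0% of the summed level of all members. It was followed by Cox6c at 2608 CPM and Cox4i1 at 2502 CPM, both also of complex IV.

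Within complex I the highest member was Ndufb8 at 2084 CPM and the lowest with a count was Ndufs5 at 0.0646 CPM. Ndufs5 had 2 counts over all 42 samples. Of its 4 annotated starts, 1 has a near-identical copy elsewhere in the genome, and why its counts were so few was not tested. Ndufs1, the largest core subunit, stood at 19.4 CPM. In complex II, Sdhb, the iron-sulfur subunit, was highest at 207 CPM and Sdhd, a membrane anchor, was lowest at 35.1 CPM. No member of complex II reached the median of all members, 363 CPM.

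In complex III, Uqcrh, the hinge protein, was highest at 1911 CPM and Uqcrc1, a large core protein, was lowest at 95.4 CPM. In complex V, Atp5e, the epsilon subunit, was highest at 1783 CPM and the associated factor Atp5s lowest at 4.21 CPM. The lowest member of complex IV with a count was the germ cell isoform Cox7b2, which had 1 count over all samples. Cox8c, another testis isoform, had 0 counts in every sample, which allows a level of up to 1.23 CPM in the deepest sample.

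**Figure D1:**
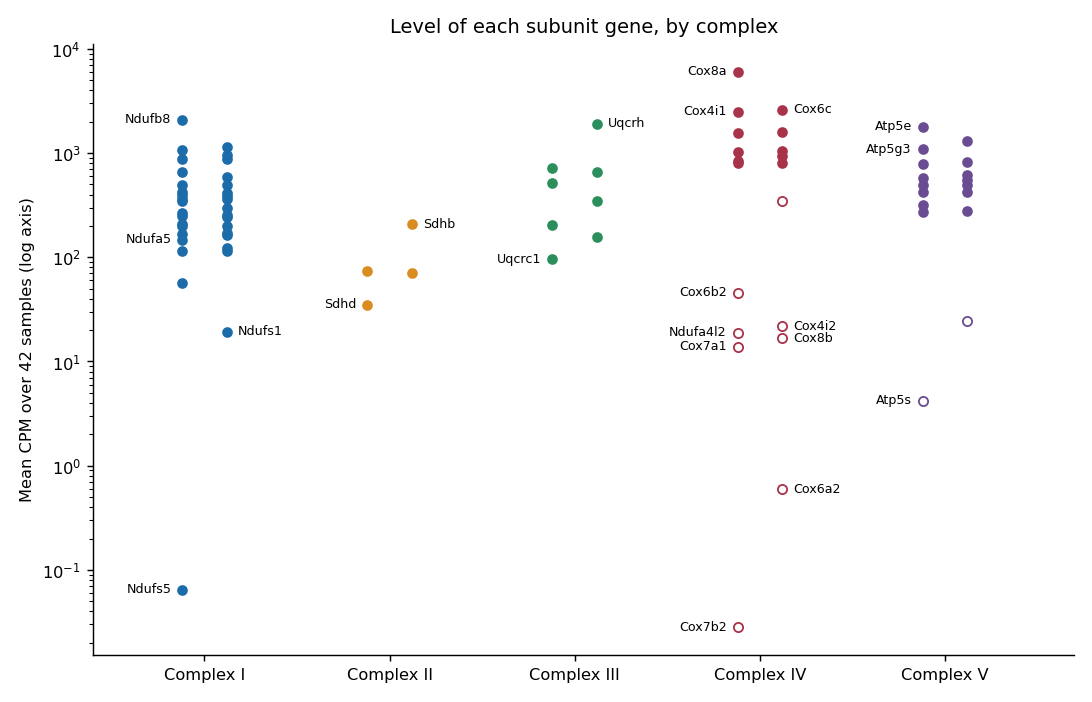
Mean CPM over 42 samples (log axis) of the 83 members with at least 1 count, in columns by complex. Filled points are ubiquitous subunits and open points are tissue-restricted isoforms and associated factors. Cox8a lies at the top at 6035 CPM, complex II lies between 35.1 and 207 CPM, and the restricted isoforms of complex IV lie below the ubiquitous ones.

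As a share of gene counts, the members summed to 4.99% ± 0.33 and 5.33% ± 0.49 (SD, n = 7 each) in uterus of WT and KO mice, to 4.38% ± 0.47 and 4.43% ± 0.43 in endometrium, and to 5.43% ± 0.58 and 5.18% ± 0.46 in myometrium. The share was lower in endometrium than in myometrium of the same mouse in 7 of 7 WT and 6 of 7 KO mice. Such a share does not depend on the scaling chosen, but it moves with every other transcript in the sample. In bulk tissue, fewer cells of a type and less RNA per cell cannot be told apart.

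The complexes differed in how their shares moved between the layers. Complex IV took 1.68% ± 0.21 of gene counts in WT endometrium and 2.29% ± 0.29 in WT myometrium, and 1.69% ± 0.18 and 2.19% ± 0.22 in the KO layers (SD, n = 7 each), lower in endometrium in 14 of 14 mice. Complex III was lower in endometrium in 14 of 14 mice as well, with means of 0.399% ± 0.040 and 0.517% ± 0.070 for the WT layers and of 0.383% ± 0.040 and 0.490% ± 0.049 for the KO layers (SD, n = 7 each).

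Complex II went the other way. It took 0.0393% ± 0.0065 of gene counts in WT endometrium and 0.0334% ± 0.0041 in WT myometrium, and 0.0447% ± 0.0038 against 0.0329% ± 0.0036 in KO (SD, n = 7 each). It was lower in endometrium in only 1 of 7 WT and 0 of 7 KO mice. Complexes I and V were lower in endometrium in 10 and 9 of 14 mice. The ranges of the layers overlapped in every complex and genotype except for complex IV in WT. These shares are given as description and were not tested.

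**Figure D2:**
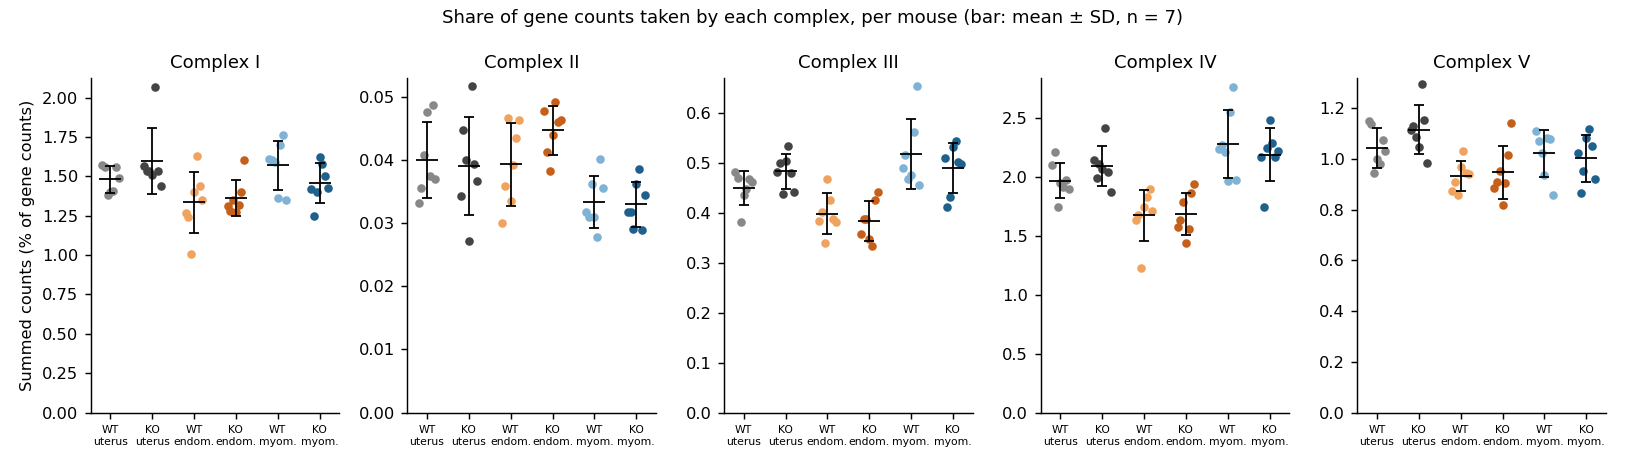
Summed counts of each complex as a percent of gene counts (y axis, from 0, scaled per panel) in the 6 groups; each point is a mouse, and the bar gives the mean and SD of 7. Complexes III and IV lie lower in endometrium than in myometrium, complex II lies higher there, and KO and WT of the same tissue overlap in every panel.

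Which members differed between endometrium and myometrium was asked gene by gene with edgeR, fitted over all genes. Over both genotypes, 28 of 81 members tested passed an adjusted p of 0.05, of which 24 were lower and 4 were higher in endometrium. Of all 14314 genes tested, 13.3% were called lower and 14.9% higher in endometrium, so that members called lower were more frequent than genes at large and members called higher were less so. The median member log2 fold change (endometrium over myometrium) was -0.17, beside 0.03 for all genes.

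Directions depended in part on scaling. With library sizes taken from the ERCC spike-ins, RNA added in a fixed amount per sample, the median of all genes shifted from 0.03 to 0.39 and that of the members from -0.17 to 0.23. According to the paper, uterine libraries were made from a set mass of extracted RNA. Levels on this scale are therefore relative to that input and are not levels per cell or per tissue. Under that scaling 15 of 81 members were called, 11 higher and 4 lower in endometrium, beside 23.8% of all genes higher and 6.71% lower, so that neither direction was more frequent among members than among genes at large. Of the 24 members called lower with TMM, 23 kept their sign, some of them near 0 (Ndufv2 at -0.008, Uqcrh at -0.03 and Cox4i1 at -0.03). Cox7a2 turned to 0.02, and 4 (Cox8b, Cox6c, Cox6b2 and Ndufa5) were still called. All 24 stayed below the all-gene median, but a change of scaling moves genes largely together, so this gives no separate support. The 4 members called higher kept sign and call. Log2 fold changes below are from the TMM fit and are thus relative to the bulk of genes.

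By complex, complex IV had the most calls, with 9 members lower and 2 higher of 18 tested and a median log2 fold change of -0.43. Complex III had 4 lower of 8 (median -0.31), complex I 8 lower of 34 (median -0.19), complex V 3 lower and 1 higher of 17 (median -0.02) and complex II 1 higher of 4 (median 0.24). Of all genes tested, 13.3% were called lower and 14.9% higher. The calls of complexes II and V are too few to set against these shares. These medians are on the TMM scale. With spike-in scaling the median of all members was 0.23, and medians by complex were not taken on that scale. The difference between complexes was not tested.

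The analysis was repeated in each genotype alone. In WT, 16 of 80 members were called, 15 lower and 1 higher in endometrium, where 6.39% and 6.81% of all genes were called lower and higher. In KO, 14 of 80 were called, 11 lower and 3 higher, beside 8.71% and 10.6% of all genes. With spike-in scaling the counts became 1 lower and 1 higher in WT, beside 3.51% and 7.20% of all genes, and 2 lower and 13 higher in KO, beside 3.23% and 20.3%. These sets come from different mice, and 12 members were called in both, all with the same sign, which was 75% of the WT list and 85.7% of the KO list. The overlap was not taken over all genes, so these shares cannot be set against genes at large. Leaving out single mice changed the counts most in WT without mouse 1 or mouse 10 (10 members) and in KO without mouse 4 (9 members). Of all genes, 1455 and 1175 of 13227 were then called in WT, and 1870 of 12969 in KO.

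The position codes in the labels follow the tissue. Uterus libraries lie in rows A and D, myometrium in B and E and endometrium in C and F, apart from 3 repeat libraries, so that layer and row cannot be told apart for the other libraries. Where repeats of a mouse and tissue lay in different rows, Cox6c was at 1757, 1942 and 1732 CPM (without TMM factors) in endometrium of KO mouse 13 in rows D, E and F. It was at 3365 and 3388 CPM in myometrium of WT mouse 12 in rows E and F. Other members varied more between the same libraries. Sdhd was at 32.3, 31.0 and 41.6 CPM in KO mouse 13 and at 25.95 and 20.09 CPM in WT mouse 12. Cox8b had 4, 0 and 2 counts in the former and 19 and 34 in the latter. The repeats cover only these mice, and an effect of the row was not tested.

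**Figure D3:**
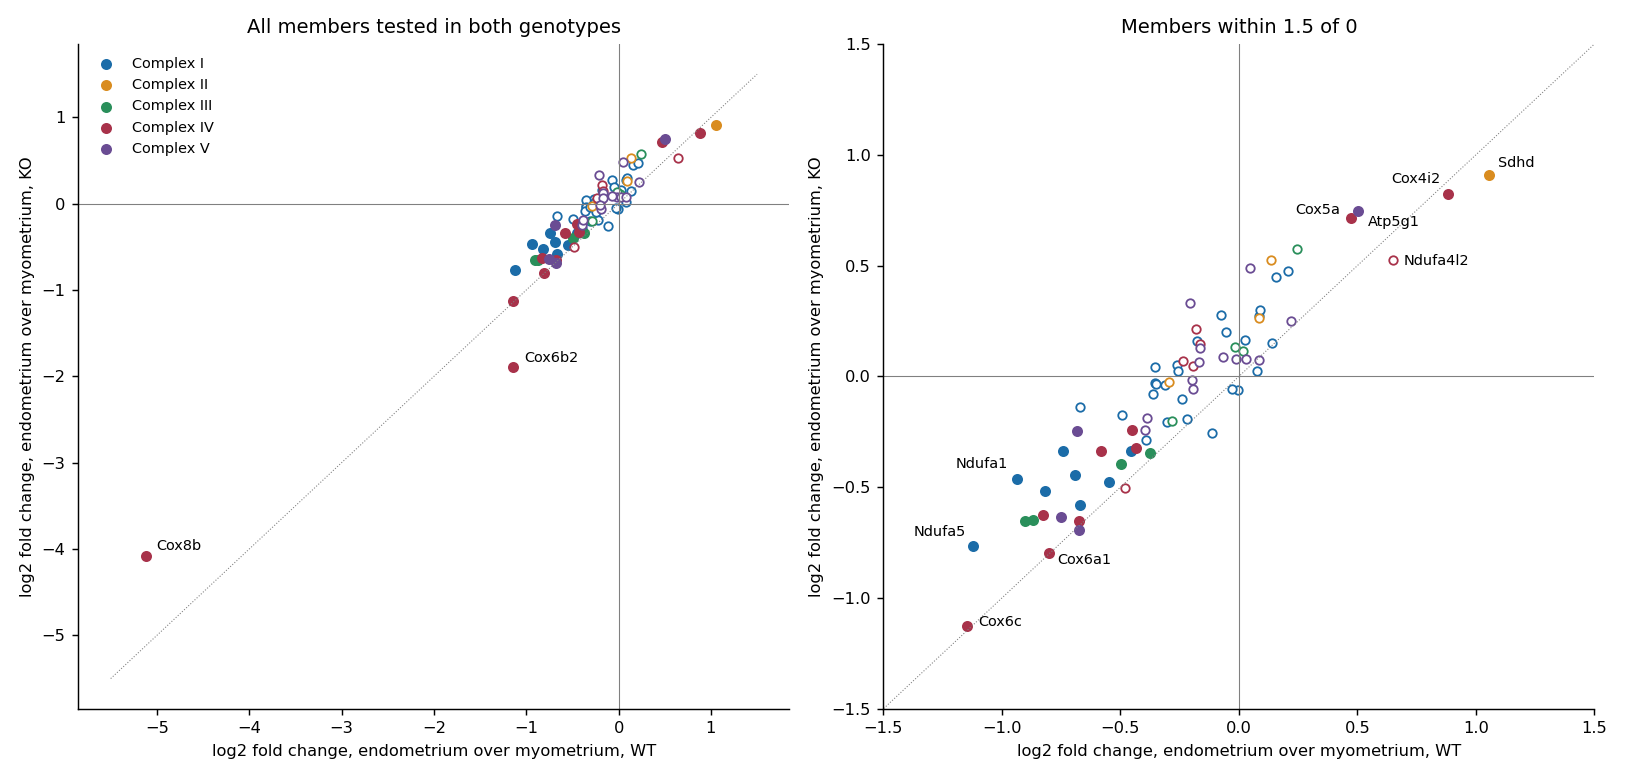
Log2 fold change of endometrium over myometrium in WT (x axis) and KO (y axis) for the 80 members tested in both, with TMM scaling; the right panel enlarges the centre. Filled points passed an adjusted p of 0.05 over both genotypes, and the dotted line marks equal change. Cox8b lies far from the rest, at -5.12 in WT and -4.08 in KO. With spike-in scaling the all-gene median rose to 0.39 and 4 of the 24 members lower in endometrium were still called.

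The muscle-type isoforms of complex IV were examined apart from their ubiquitous partners. Cox8b, the heart and skeletal muscle form of subunit VIII, is at chromosome 7, 148084842 to 148086345 (NCBIM37, minus strand). Its annotated start had no near-identical copy elsewhere in the genome. In WT myometrium it had 19.5 to 67.9 CPM with a median of 30.0 CPM, and in KO myometrium 11.6 to 34.1 CPM with a median of 27.7 CPM. In endometrium it reached 2.58 CPM at most in WT and 5.28 CPM in KO, with a median of 0 in both. The layers did not overlap in either genotype. Whole uterus had 11.9 to 26.4 CPM in WT and 8.68 to 34.5 CPM in KO, with medians between those of the layers.

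In counts, WT endometrium had 4 in total, with 4 of 7 samples at 0 and none above 2, whereas WT myometrium had 174, with 9 to 53 per sample. The pooled Cox8b rate was therefore 41.9 times higher in WT myometrium, with an exact 95% interval of 16.1 to 156 that covers counting error only. In KO the counts were 10 and 99 and the ratio was 17.2, with an interval of 8.95 to 36.9. Of the 10 counts in KO endometrium, 6 came from mouse 13 and 4 from mouse 4. Without endometrium of KO mouse 13 the ratio was 27.0, and without that of WT mouse 12, which held 2 of the 4 WT counts, it was 68.3. The edgeR adjusted p was 8.66e-07 in WT (log2 fold change -5.12 ± 0.54, SE) and 1.06e-05 in KO (-4.08 ± 0.54, SE), and the call held with spike-in scaling (-4.96 and -3.52).

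Cox8a, the ubiquitous form on chromosome 19 (7289648 to 7292106, minus strand, NCBIM37), was present at a far higher level in both layers. It had 2750 to 6273 CPM (median 4734) in WT endometrium and 4871 to 8601 CPM (median 7313) in WT myometrium. In KO the ranges were 3463 to 6566 CPM (median 4935) and 3969 to 8443 CPM (median 6216). The ranges overlapped, and 10 of 14 mice were lower in endometrium. Over both genotypes the log2 fold change of Cox8a was -0.47 ± 0.14 (SE, edgeR adjusted p = 0.00861), and with spike-in scaling it was -0.08 and not called.

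The share of Cox8b in the summed counts of Cox8a and Cox8b does not depend on scaling. It was 0.538% ± 0.254 in WT myometrium and 0.402% ± 0.087 in KO myometrium, against 0.0244% ± 0.0361 and 0.0210% ± 0.0407 in endometrium (SD, n = 7 each). It was higher in myometrium in 14 of 14 mice. Even there, Cox8a provided nearly all subunit VIII transcripts.

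Most of the striated muscle genes tested moved with Cox8b. Of 14 such markers, 8 passed the filter and 7 were lower in endometrium (edgeR, both genotypes). Among them were Tnnt3 at -4.75 ± 0.41, Tnni2 at -3.98 ± 0.40 and Acta1 at -3.50 ± 0.47 on the log2 scale (SE). These 7 stayed lower with spike-in scaling. Mylpf, the other marker tested, was not called, and its means went the other way. They were 0.854 and 0.930 CPM in WT and KO endometrium against 0.257 and 0.757 CPM in myometrium, all under the lowest floor of 1.23 CPM. The 8 smooth muscle markers were lower in endometrium too, at a median log2 fold change of -3.33. The summed level of the 14 striated markers was 222 to 940 CPM in WT myometrium and 396 to 560 CPM in KO myometrium, against 6.44 to 166 CPM and 7.92 to 182 CPM in endometrium. The defining genes of skeletal fibres, Myh1, Myh2, Myh4 and Myh7, and also Ckmt2 and Mb, had 0 counts in all 42 samples. The brown adipocyte gene Ucp1 was also at 0. Fabp4, the 1 adipocyte marker of 6 that was tested, was lower in endometrium by a log2 fold change of -3.08 ± 0.43 (SE). Other markers of that list did not follow it. Adipoq and Retn had means of 1.82 and 3.27 CPM in WT endometrium and 1.43 and 2.12 CPM in WT myometrium, and were at 0 in all KO groups. The part of these cell types in the Cox8b result was not tested.

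The other muscle-type isoforms, Cox7a1 and Cox6a2, were not called between the layers. Cox7a1, the heart and muscle form of subunit VIIa, had medians of 7.75 and 11.2 CPM in WT and KO endometrium and of 12.0 and 15.9 CPM in myometrium, with overlapping ranges (edgeR adjusted p = 0.140, log2 fold change -0.50 ± 0.25, SE). It made up 1.34% ± 0.55 of Cox7a1 and Cox7a2 counts in WT endometrium and 1.45% ± 0.52 in WT myometrium (SD, n = 7 each), lower in endometrium in 8 of 14 mice. Cox6a2, the muscle form of subunit VIa, had 16 counts over all 42 samples and was seen in 11 of them, and its levels were too low for a fold change. With mouse 8 left out it was called lower in endometrium (edgeR adjusted p = 0.0304, both genotypes).

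The ubiquitous partners were abundant. Cox7a2 had a median of 813 CPM in WT endometrium and 1113 CPM in WT myometrium (both genotypes, log2 fold change -0.36 ± 0.13, SE, edgeR adjusted p = 0.0309), and with spike-in scaling its sign turned to 0.02. With the mouse as a replicate block its adjusted p was 0.0565 (edgeR). Cox6a1 had 774 to 1534 CPM (median 936) in WT endometrium and 1074 to 2786 CPM (median 1821) in WT myometrium. In KO it had 724 to 1703 CPM (median 1028) and 1090 to 2514 CPM (median 2130). The ranges overlapped, yet Cox6a1 was lower in endometrium in 14 of 14 mice, with a log2 fold change of -0.80 ± 0.23 (SE, edgeR adjusted p = 0.0185) in WT and -0.80 ± 0.21 (adjusted p = 0.00983) in KO. With spike-in scaling it was -0.45 over both genotypes and not called.

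The promoters of 3 genes are shown because Cox8a and Cox8b encode alternative forms of the same subunit and Sdhd moved opposite to most members. Each is the RefSeq window (GRCm38.p6) from 250 bases before to 50 after the annotated start, 5′ to 3′ on the strand of the gene. Capitals mark matches on either strand to CCGGAAG (the core bound by ETS factors such as GABP), an NRF1 site, TATAAA (bound by TBP) or CAGCTG (an E-box). The YY1 core given further on had no match in these windows. The windows are chr19:7217567-7217866 for Cox8a, chr7:140900397-140900696 for Cox8b and chr9:50603800-50604099 for Sdhd, all on the minus strand.
Cox8a: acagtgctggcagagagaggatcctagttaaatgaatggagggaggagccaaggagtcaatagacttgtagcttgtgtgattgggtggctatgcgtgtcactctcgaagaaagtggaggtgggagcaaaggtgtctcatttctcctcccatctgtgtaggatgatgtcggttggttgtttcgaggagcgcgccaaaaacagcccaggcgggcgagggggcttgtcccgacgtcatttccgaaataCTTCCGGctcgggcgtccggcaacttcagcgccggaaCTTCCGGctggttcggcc
Cox8b: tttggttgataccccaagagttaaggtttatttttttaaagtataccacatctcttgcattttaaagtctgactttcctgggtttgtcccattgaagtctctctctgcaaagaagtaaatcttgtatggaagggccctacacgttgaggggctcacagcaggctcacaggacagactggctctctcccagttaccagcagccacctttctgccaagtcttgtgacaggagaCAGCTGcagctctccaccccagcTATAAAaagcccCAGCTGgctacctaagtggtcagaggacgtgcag
Sdhd: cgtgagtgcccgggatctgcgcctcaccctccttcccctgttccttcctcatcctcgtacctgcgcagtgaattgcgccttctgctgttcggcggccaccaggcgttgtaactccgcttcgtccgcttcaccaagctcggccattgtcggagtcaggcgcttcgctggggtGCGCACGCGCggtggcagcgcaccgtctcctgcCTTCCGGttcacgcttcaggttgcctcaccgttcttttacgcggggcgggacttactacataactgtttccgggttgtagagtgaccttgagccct

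The Cox8a window held 2 ETS cores and no TATAAA, whereas the Cox8b window held TATAAA once, 4 to 9 bases after the annotated start and so not ahead of it, and 2 E-boxes and no ETS or NRF1 match. None of the matches in these windows overlap. The Sdhd window held 1 ETS core and 1 NRF1 site. Of 84 members, 69 had a promoter in the RefSeq table. Among these, 23.2% held the ETS core and 24.6% the NRF1 site, beside 8.86% and 4.60% of all 32851 promoters. The core bound by YY1, AAGATGG, was in 17.4% of member promoters and 6.34% of all. TATAAA was in 10.1% against 13.6%, and the E-box in 8.70% against 16.3%. A match is only a match of letters, and these shares were not tested.

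Cox6c and Cox6b2 showed the next largest layer differences. Cox6c, a subunit of complex IV, is at chromosome 15, 35855641 to 35868001 (NCBIM37, minus strand). It had 760 to 1808 CPM (median 1552) in WT endometrium and 2800 to 3968 CPM (median 3142) in WT myometrium. In KO the ranges were 940 to 2557 CPM (median 1413) and 2688 to 4143 CPM (median 3412). No endometrium sample reached the lowest myometrium sample of its genotype.

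The log2 fold change of Cox6c was -1.15 ± 0.21 (SE, edgeR adjusted p = 3.17e-04) in WT and -1.13 ± 0.20 (adjusted p = 3.01e-04) in KO. With spike-in scaling it was called over both genotypes at -0.78 (edgeR adjusted p = 0.00442) but in neither alone, at -0.92 in WT (adjusted p = 0.0892) and -0.64 in KO (adjusted p = 0.0767). Of the 5 annotated starts of Cox6c, 1 has near-identical copies elsewhere, and part of its counts could belong to those.

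Cox6b2 is described as the testis form of subunit VIb, but it was detected here in all 42 samples. On chromosome 7 (4703396 to 4704696, minus strand, NCBIM37), it had 15.5 to 37.3 CPM (median 21.6) in WT endometrium and 29.6 to 82.3 CPM (median 57.9) in WT myometrium. In KO it had 13.2 to 31.9 CPM (median 17.9) and 39.8 to 98.5 CPM (median 89.0). The layers overlapped in WT but not in KO, and 13 of 14 mice were lower in endometrium.

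The log2 fold change of Cox6b2 was -1.14 ± 0.29 (SE, edgeR adjusted p = 0.00813) in WT and -1.89 ± 0.26 (adjusted p = 1.36e-05) in KO. With spike-in scaling it was -0.93 in WT, no longer called, and -1.39 in KO, still called. The genotype by layer interaction had a log2 estimate of -0.74 ± 0.38 (SE, edgeR unadjusted p = 0.0545, adjusted p = 0.993). The ubiquitous partner Cox6b1 did not pass in either genotype, and its log2 fold change over both was close to 0, with a sign that turned in several refits. As a share of Cox6b1 and Cox6b2 counts, Cox6b2 made up 6.78% ± 2.46 in WT myometrium and 9.35% ± 1.96 in KO myometrium, against 3.35% ± 1.05 and 2.62% ± 1.37 in endometrium (SD, n = 7 each), higher in myometrium in 14 of 14 mice.

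Other isoform pairs of complex IV went in the opposite direction. Cox4i2, the form of subunit IV linked to low oxygen and to lung and vessel walls, had 0 to 51.5 CPM (median 32.6) in WT endometrium and 12.0 to 19.98 CPM (median 15.2) in WT myometrium. In KO it had 8.07 to 43.6 CPM (median 21.2) and 1.99 to 27.5 CPM (median 13.6). Levels were higher in endometrium in 11 of 14 mice, and the lowest value of all came from WT endometrium of mouse 5. Over both genotypes the log2 fold change was 0.84 ± 0.31 (SE, edgeR adjusted p = 0.0352), and in neither genotype alone was Cox4i2 called. Leaving out any 1 of 9 mice (of 14) ended the call over both genotypes, with an adjusted p of up to 0.0672 (edgeR).

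Its partner Cox4i1 moved the other way, at -0.39 ± 0.14 (SE, edgeR adjusted p = 0.0256, both genotypes), but was near 0 (-0.03) and not called with spike-in scaling. Cox4i2 made up 1.32% ± 0.81 of Cox4i1 and Cox4i2 counts in WT endometrium and 0.588% ± 0.161 in WT myometrium, and 1.23% ± 0.60 and 0.572% ± 0.450 in KO (SD, n = 7 each). The share was higher in endometrium in 13 of 14 mice.

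Ndufa4 and Ndufa4l2 formed a similar pair. Ndufa4, a subunit of complex IV, was lower in endometrium in 14 of 14 mice, at -0.83 ± 0.20 in WT and -0.63 ± 0.19 in KO on the log2 scale (SE, edgeR adjusted p = 0.00654 and 0.0235), and at -0.36 over both genotypes with spike-in scaling, not called. Ndufa4l2, its hypoxia-induced relative, was not called at 0.58 ± 0.25 (SE, edgeR adjusted p = 0.0748, both genotypes) but was called with spike-in scaling at 0.94, and without mouse 6 (edgeR adjusted p = 0.0296). Its share of the counts of both genes was 3.26% ± 0.91 in WT endometrium and 1.26% ± 0.56 in WT myometrium, and 3.70% ± 1.91 against 1.59% ± 0.24 in KO (SD, n = 7 each), higher in endometrium in 13 of 14 mice.

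Ndufa4l2 and Cox4i2 are also known from pericytes. Of 7 pericyte markers, 5 were lower and 0 higher in endometrium (edgeR, both genotypes), among them Kcnj8 at -1.68 ± 0.24 and Rgs5 at -0.60 ± 0.23 (log2, SE). Their summed level was 119 to 338 CPM in WT endometrium and 266 to 654 CPM in WT myometrium. Higd1b was not called and went the other way. Its means were 8.56 and 8.22 CPM in WT and KO endometrium against 5.53 and 4.88 CPM in myometrium. With spike-in scaling 4 of the 7 markers were lower and 1 higher. The pericyte markers thus did not all move in the same direction, and the part of pericytes in the Cox4i2 and Ndufa4l2 results was not tested. None of 5 endothelial markers was called.

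Among the other subunits of complex IV, Cox7c was lower in endometrium at -0.67 ± 0.20 in WT and -0.65 ± 0.18 in KO (log2, SE, edgeR adjusted p = 0.0272 and 0.0138). Of its 4 annotated starts, 1 has near-identical copies elsewhere. Cox5a, which binds the matrix face of the complex, was higher. It had 349 to 989 CPM (median 836) in WT endometrium and 362 to 720 CPM (median 587) in WT myometrium, and 738 to 1421 CPM (median 849) against 362 to 783 CPM (median 577) in KO. The layers overlapped in both genotypes, and Cox5a was called in KO (0.72 ± 0.20, SE, edgeR adjusted p = 0.0132) but not in WT (0.47 ± 0.24, adjusted p = 0.218). With spike-in scaling Cox7c was not called (-0.29) and Cox5a was (0.96), over both genotypes. Cox7b and the supercomplex factor Cox7a2l did not pass, and both turned from below to above 0 with spike-in scaling.

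**Figure D4:**
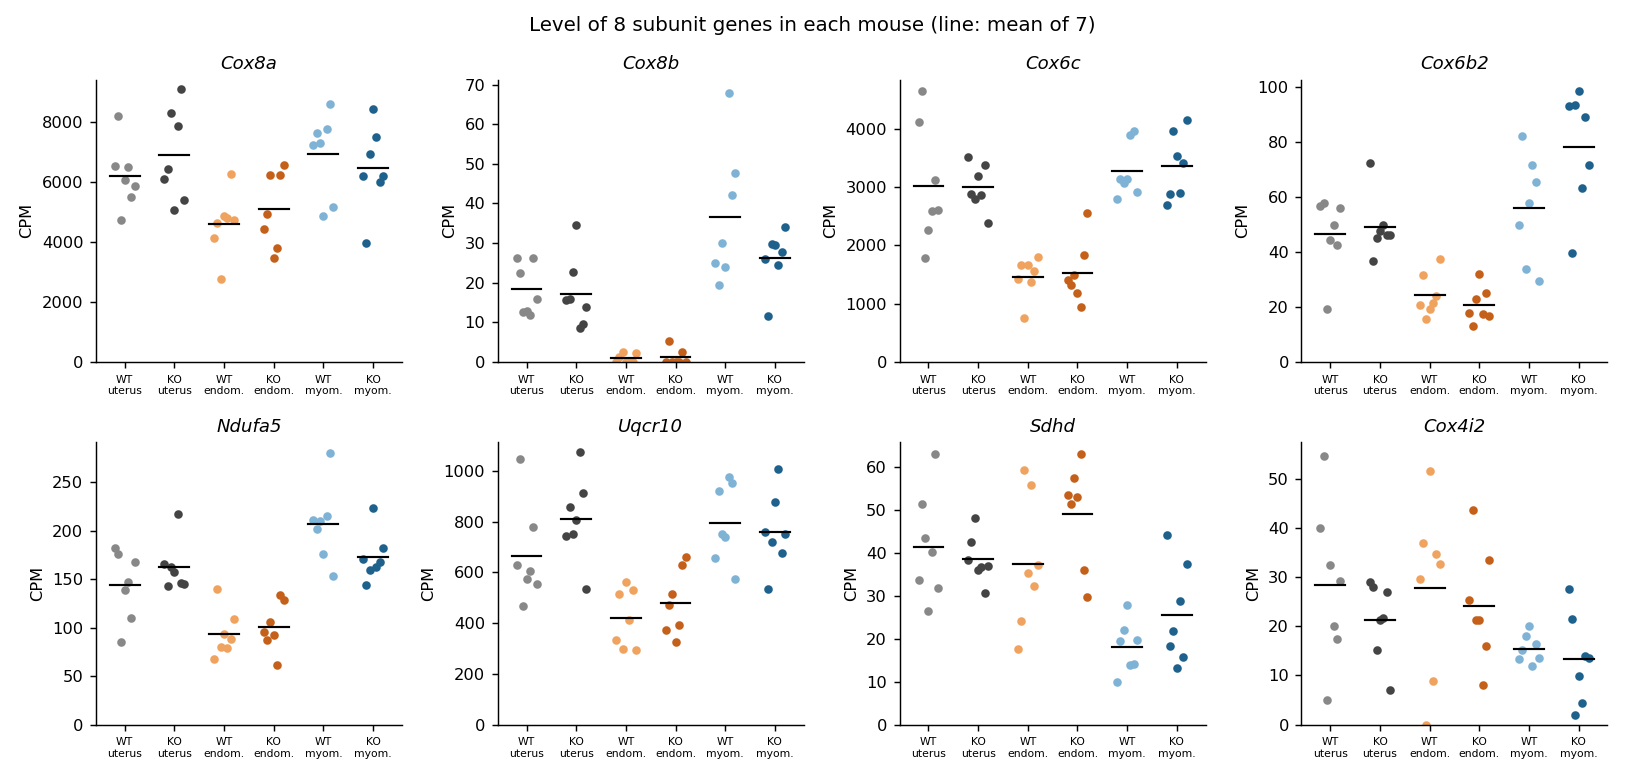
Level in CPM (TMM scaling, y axis from 0) of 8 members in each of the 6 groups; each point is a mouse and the line is the mean of 7. Cox8b and Cox6c in endometrium lie below every myometrium sample of the same genotype, while Sdhd and Cox4i2 lie higher in endometrium with overlap. With spike-in scaling Cox8a and Uqcr10 were no longer called between the layers, and the other 6 genes were.

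In complex I, 8 of 34 members tested were called over both genotypes, all lower in endometrium: Ndufa1, Ndufa5, Ndufb2, Ndufb6, Ndufb8, Ndufb9, Ndufc1 and Ndufv2. Of the 7 core subunits that carry the flavin, the iron-sulfur clusters or the quinone site, only Ndufv2 was called. Of the 27 accessory subunits 7 were called, beside 13.3% of all genes called lower. The core subunits are too few to set against that share, and the split was not tested. None of the 8 members called turned sign with spike-in scaling, but only Ndufa5 was still called, and Ndufv2 was near 0 (-0.008).

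Ndufa5, an accessory subunit of the matrix arm, had the smallest p in the complex. It had 67.9 to 139.8 CPM (median 88.5) in WT endometrium and 153.5 to 280.1 CPM (median 210) in WT myometrium. In KO it had 61.8 to 133.5 CPM (median 95.1) and 144.4 to 223.2 CPM (median 168). The layers did not overlap in either genotype.

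The log2 fold change of Ndufa5 was -1.12 ± 0.23 (SE, edgeR adjusted p = 0.00108) in WT and -0.77 ± 0.20 (adjusted p = 0.00751) in KO, and -0.58 over both genotypes with spike-in scaling (adjusted p = 0.0394). Under that scaling it was not called in either genotype alone (-0.92 in WT and -0.25 in KO). Ndufb8, Ndufb9, Ndufc1 and Ndufa1 were called in WT but not in KO. Their log2 fold changes were -0.82, -0.74, -0.67 and -0.94 in WT and -0.52, -0.34, -0.58 and -0.46 in KO. With the mouse as a replicate block Ndufc1 was not called in WT (edgeR adjusted p = 0.0517). The difference between the genotypes was tested as an interaction and was not called for any of them.

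In complex III the 4 members called were the small subunits Uqcr10, Uqcrq, Uqcrb and Uqcrh, all lower in endometrium over both genotypes. Uqcr10 had 296 to 562 CPM (median 412) in WT endometrium and 573 to 976 CPM (median 750) in WT myometrium, without overlap. In KO it had 324 to 662 CPM (median 470.0) and 534 to 1010 CPM (median 750), with overlap, and it was lower in endometrium in 14 of 14 mice.

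The log2 fold change of Uqcr10 was -0.90 ± 0.22 (SE, edgeR adjusted p = 0.00542) in WT and -0.65 ± 0.20 (adjusted p = 0.0210) in KO, and that of Uqcrq was -0.87 ± 0.21 (adjusted p = 0.00649) and -0.65 ± 0.22 (adjusted p = 0.0398). With spike-in scaling they were -0.42 and -0.40 over both genotypes and were not called. In KO, leaving out any 1 of 5 of the 7 mice ended the call of Uqcrq, and any 1 of 3 ended that of Uqcr10. Uqcrb and Uqcrh had smaller differences, -0.46 ± 0.15 and -0.37 ± 0.13 (log2, SE, edgeR adjusted p = 0.0183 and 0.0242, both genotypes), and were near 0 with spike-in scaling. With the mouse as a replicate block Uqcrh was not called (edgeR adjusted p = 0.0523). Uqcrc1, Uqcrc2 and Uqcrfs1, the large core proteins and the Rieske protein, were not called. Uqcr10, Uqcrb and Uqcrh each have annotated starts with a near-identical copy.

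Complex II, which is also an enzyme of the citric acid cycle, had 1 member called. Sdhd, on chromosome 9 (50404443 to 50411954, minus strand, NCBIM37), had 17.7 to 59.4 CPM (median 35.4) in WT endometrium and 9.98 to 28.0 CPM (median 19.5) in WT myometrium. In KO it had 29.8 to 63.2 CPM (median 53.1) and 13.1 to 44.3 CPM (median 21.9). The groups overlapped, and 13 of 14 mice were higher in endometrium.

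Sdhd differed by a log2 fold change of 1.05 ± 0.31 (SE, edgeR adjusted p = 0.0242) in WT and 0.91 ± 0.28 (adjusted p = 0.0225) in KO. It was the single member called higher in both genotypes, although leaving out mouse 8 or mouse 10 ended the call in WT, and leaving out any 1 of 5 of the 7 KO mice ended it in KO. Over both genotypes no single mouse did so, and with spike-in scaling it was called as well (1.35 over both). Sdhb, at 0.32 ± 0.15 (SE, edgeR adjusted p = 0.110, both genotypes), was not called with TMM but was with spike-in scaling (0.69).

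In complex V, Atp5k, Atp5l and Atp5c1 were lower and Atp5g1 was higher in endometrium over both genotypes. Atp5k and Atp5l encode small membrane subunits that act in dimers of the enzyme, and Atp5c1 encodes the gamma subunit of the rotor. Atp5k was at -0.67 ± 0.21 in WT and -0.69 ± 0.19 in KO, and Atp5l at -0.75 ± 0.20 and -0.64 ± 0.20 (log2, SE, edgeR adjusted p from 0.0106 to 0.0278). Both were lower in endometrium in 14 of 14 mice. With spike-in scaling all 3 kept their sign and none was called. With the mouse as a replicate block, Atp5k in WT stood at an edgeR adjusted p of 0.0547.

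The c subunit of the rotor ring is encoded by Atp5g1, Atp5g2 and Atp5g3, which differ in their import sequences and yield the same mature protein. Atp5g1 had 339 to 837 CPM (median 543) in WT endometrium and 233 to 552 CPM (median 470) in WT myometrium, and 382 to 1253 CPM (median 629) against 317 to 612 CPM (median 404) in KO. The layers overlapped in both genotypes. Atp5g1 was called in KO (log2 fold change 0.74 ± 0.22, SE, edgeR adjusted p = 0.0205) and not in WT (0.50 ± 0.24, adjusted p = 0.187), and was higher in endometrium in 10 of 14 mice.

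As a share of all c subunit counts, Atp5g1 made up 29.6% ± 3.6 in WT endometrium and 21.9% ± 2.6 in WT myometrium, and 30.7% ± 5.5 against 21.8% ± 2.4 in KO (SD, n = 7 each). The share was higher in endometrium in 14 of 14 mice. Atp5g2 and Atp5g3 were not called, and their shares were lower in endometrium in 12 of 14 mice each. The single start of Atp5g2 has 4 near-identical copies in the genome, so its counts are uncertain.

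Genes of the same pathway that the symbols did not select were counted in the layer comparison over both genotypes. Of 5 further subunits or partners (Ndufab1, Cyc1, Usmg5, 2010107E04Rik and Atpif1), Usmg5, another small membrane subunit of complex V, was lower in endometrium at -0.83 ± 0.14 (log2, SE, edgeR adjusted p = 1.33e-05), and 0 were higher. Of all genes, 14.9% were called higher and 13.3% lower. Of 44 assembly factors tested, 2 were higher (Coa3 and Coa4) and 3 lower (Tmem70, Uqcc2 and Coa6). Tmem70, which acts in the assembly of complex V, was at -1.38 ± 0.21 (log2, SE, edgeR adjusted p = 1.87e-06) and stayed called with spike-in scaling. Of 16 citric acid cycle genes, Suclg2 was higher and Cs and Ogdh were lower. All of these kept their sign with spike-in scaling, but Usmg5, Uqcc2, Coa6, Cs and Ogdh were no longer called. Other genes of these lists gained a call, so that with spike-in scaling 9 assembly factors were higher and 1 lower and 2 citric acid cycle genes were higher and 0 lower, beside 23.8% and 6.71% of all genes.

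Of 77 mitochondrial ribosomal protein genes tested, 14 were called higher and 1 lower in endometrium (edgeR, both genotypes), with a median log2 fold change of 0.11. Over all genes 14.9% were higher and 13.3% lower, so that the higher calls were about as frequent as among genes at large. With spike-in scaling 27 were called higher and 0 lower, beside 23.8% and 6.71% of all genes. Of 8 genes for electron carriers and shuttles, 3 were higher and 2 lower. The ADP/ATP carriers were split by isoform: Slc25a4, the heart and muscle form, was at -1.57 ± 0.20 and Slc25a5 at 0.52 ± 0.17 (log2, SE, edgeR adjusted p = 1.17e-07 and 0.0178), and both kept sign and call with spike-in scaling. Of 12 regulators of mitochondrial biogenesis tested, Gabpa was lower at -0.88 ± 0.33 (SE, edgeR adjusted p = 0.0417) and 0 were higher. With spike-in scaling Gabpa was at -0.47 and not called, and 1 regulator was called higher and 0 lower. A single call of 12 is no more than the 13.3% of all genes called lower.

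Whether the tract of KO females differed in these genes was asked by setting KO against WT in every tissue. No member was called in uterus, endometrium or myometrium, out of 80 tested in each (edgeR, adjusted p under 0.05), and 0% of all genes were. At an unadjusted p under 0.05 there were 1, 0 and 1 members in the 3 tissues, beside 5.64%, 5.2% and 4.22% of all genes. DESeq2 also called 0 members in each, where it called 7, 1 and 0 of all genes. At an unadjusted p under 0.05 it had 6, 0 and 1 members, beside 5.59%, 4.65% and 3.16% of all genes.

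Member log2 fold changes (KO over WT) ranged from -0.56 for Atp5s to 0.60 for Cox7b in uterus, from -0.26 for Cox6b2 to 0.51 for Cox8b in endometrium and from -0.51 for Cox8b to 0.54 for Sdhd in myometrium. None exceeded 1 in size, and the median standard errors were 0.19, 0.24 and 0.18. The member with the smallest p in uterus was Cox7b, a small subunit of complex IV, with 619 to 1263 CPM (median 832) in WT and 741 to 2055 CPM (median 1477) in KO. The groups overlapped (log2 fold change 0.60 ± 0.21, SE, edgeR unadjusted p = 0.00826, adjusted p = 0.659).

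In endometrium it was Sdhb, with 103 to 276 CPM (median 175) in WT and 202 to 361 CPM (median 222) in KO (log2 fold change 0.42 ± 0.23, SE, edgeR adjusted p = 0.958). In myometrium it was Uqcrq, a small subunit of complex III, with 740 to 1114 CPM (median 971) in WT and 565 to 914 CPM (median 762) in KO (-0.39 ± 0.15, SE, edgeR unadjusted p = 0.0143, adjusted p = 1.00). Both overlapped between genotypes. A p that misses the threshold does not show that the genotypes were alike.

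In uterus 63 of 80 members had a positive log2 fold change, with a median of 0.15 beside -0.05 for all genes. The median was 0.17 within mice 1 to 8 (position codes A to C) and 0.16 within mice 9 to 14 (codes D to F). With spike-in scaling it was -0.19, beside -0.37 for all genes, so its sign depended on scaling, while it lay above that of all genes with both. In endometrium 68 of 80 were positive with a median of 0.13 beside 0.02, and the median was 0.13 within the first set of mice and -0.03 within the second. In myometrium 32 of 80 were positive with a median of -0.04 beside -0.03, and it was -0.14 and 0.12 within the sets. Members of the same sample share its library and are not replicates, so these counts carry no test.

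Within mice 9 to 14, 1 member was called in myometrium, Ndufa8, an accessory subunit of complex I (log2 fold change -1.20, edgeR adjusted p = 0.0362), where 0.378% of 12980 genes were called. The WT group there is 2 mice, of which mouse 10 was at 540 CPM and mouse 12 at 146 CPM, the latter within the KO range. In the full groups Ndufa8 had 142 to 540 CPM (median 149) in WT and 128 to 185 CPM (median 146) in KO, and was not called.

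**Figure D5:**
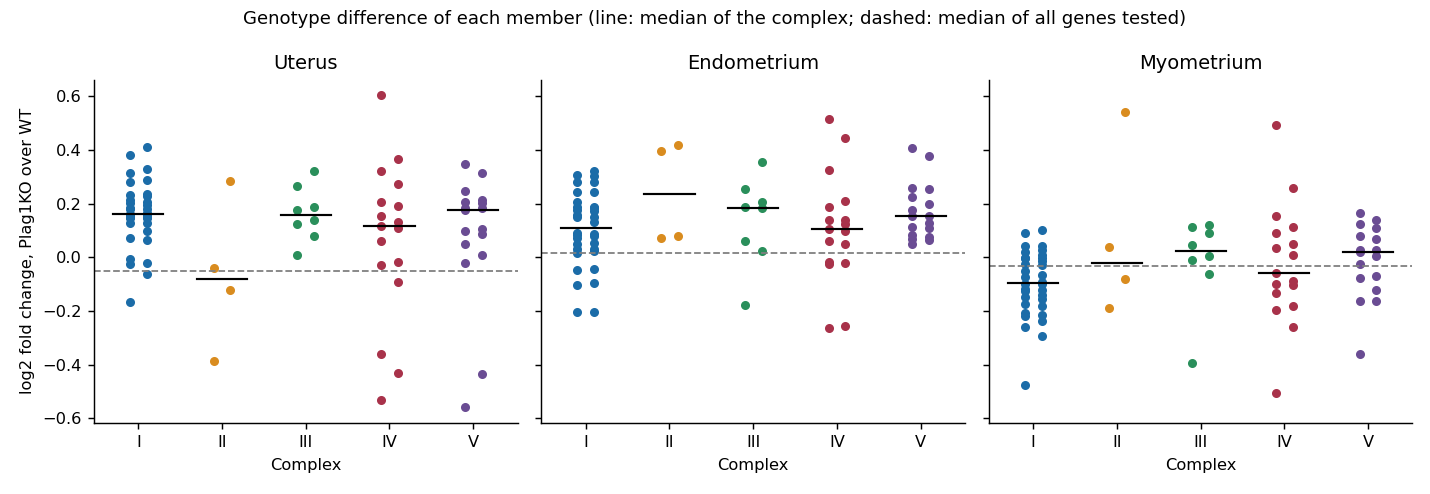
Log2 fold change of KO over WT (y axis, TMM scaling) of the members tested in each tissue, in columns by complex. The line is the median of the complex and the dashed line that of all genes tested. In uterus complexes I, III, IV and V lie above the dashed line at medians of 0.16, 0.16, 0.12 and 0.18, and no member passed the adjusted threshold in any tissue; with spike-in scaling the uterus median of all members was -0.19.

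Whether the layer difference itself depended on genotype was tested as an interaction. No member of 81 was called, and 0% of all genes were (edgeR, adjusted p under 0.05). At an unadjusted p under 0.05 there was 1 member, beside 4.6% of all genes, and DESeq2 called 0. That member was Cox6a2 (unadjusted p = 0.0162, adjusted p = 0.993), which had 3, 0, 1 and 3 counts in the WT endometrium, KO endometrium, WT myometrium and KO myometrium groups. These are too few for a fold change.

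Spread between mice was moderate. For the 67 members with a mean of at least 100 CPM, the median coefficient of variation among the 7 mice of a group was 18.4% in WT uterus and 23.0% in KO uterus. It was 26.9% and 27.2% in WT and KO endometrium, and 20.7% and 20.2% in WT and KO myometrium. Endometrium thus had the widest spread in both genotypes.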

How the data were processed

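STRT RNA-seq of 42 mouse-tissue samples (45 libraries from 14 mice) was analysed from the deposited table of raw counts, which the authors made per gene with reads aligned to mm9. The supplementary methods of the study name TopHat for alignment and Homer for counting, whereas the submitters' processing notes name HTSeq. How reads with several matches and the strand were treated is not given in the sources used here. The libraries held 264095 to 1232992 counts, 92 of the rows were ERCC spike-ins, and 24422 were genes. Intervals and floors cover counting error only.

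Repeat libraries of a mouse and tissue were summed. Each comparison was fitted with edgeR 4.0.16 (quasi-likelihood test, TMM factors, R 4.3.3) on those genes that reached 1 CPM in 5 or more of its samples, and p-values were adjusted over all genes tested with the Benjamini-Hochberg method (threshold 0.05). Spike-ins were left out except where they set the scaling. Alternatives were DESeq2 1.42.0, RLE factors, spike-in scaling, no filter, a 10 CPM filter, 1 library per mouse and tissue, a single fit of all groups, the mouse as a replicate block, position codes and leaving out each mouse. The scripts were tested on simulated data. Replicates are separate mice.

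Endometrium and myometrium of a number come from the same mouse. Deviations from the group means correlated between them at a mean of 0.0859 in WT and 0.128 in KO over 14822 genes, against -0.0146 and -0.0213 between different mice.

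Members and gene lists were chosen with earlier results of these data known. The genes named are the paired or restricted isoforms, the highest and lowest member of each complex, up to 25 members called in each comparison by smallest p and, where none was called, the member with the smallest p. The gene locations are from the NCBIM37 (mm9) annotation, and the promoters from RefSeq. An annotated start was said to have a near-identical copy where 90 of its first 100 bases aligned elsewhere at 95% identity or more.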

Additional observations from a re-analysis of the deposited data

Results flagged for a closer look

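Of 150 groups of 7 samples examined, 13 held a sample whose gap to the nearest other was wide for the range of its group, where chance gives about 1 in 20. In KO uterus, mouse 11 had 6.37% of gene counts in all members (the others 4.77% to 5.34%) and 2.07% in complex I (the others 1.44% to 1.57%). Complex I took 1.61% in KO endometrium of mouse 14 (the others 1.27% to 1.402%). Complex IV took 1.23% in WT endometrium of mouse 5 (the others 1.64% to 1.90%) and 1.75% in KO myometrium of mouse 4 (the others 2.17% to 2.49%).

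The other values are single genes as log2(CPM + 1). In KO mouse 4, Cox8b was at 3.66 in myometrium (the others 4.67 to 5.13) and Cox7a1 at 1.86 in endometrium (the others 3.52 to 4.08). In WT mouse 5, Cox4i2 was at 0 in endometrium (the others 3.31 to 5.71), Cox6c at 9.57 in endometrium (the others 10.43 to 10.82), Cox6b2 at 4.34 in uterus (the others 5.44 to 5.88) and Ndufa4l2 at 1.58 in myometrium (the others 3.56 to 3.94). Cox4i1 was at 10.86 in KO uterus of mouse 14 (the others 11.49 to 11.92), and Ndufa5 at 7.77 in KO uterus of mouse 11 (the others 7.17 to 7.38).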

How the results depend on the processing

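Spike-in scaling moved the layer counts from 16 to 2 members in WT (Cox8b at -4.96 and Sdhd at 1.2986), from 14 to 15 in KO and from 28 to 15 over both genotypes. Between whole uterus and myometrium it gave 71 members of 81, beside 36.4% of all genes. It also turned the sign of 5 named members over both genotypes, Cox6b1 to 0.34, Cox7a2 to 0.0195, Cox7a2l to 0.31, Cox7b to 0.29 and Atp5g2 to 0.23. Leaving out 1 mouse gave 10 to 17 members in WT, 9 to 15 in KO and 24 to 30 over both genotypes, and 0 in the KO against WT comparisons and the interaction. Of all genes, 1175 to 1873 of 13227, 1870 to 2277 of 12969 and 3698 to 4195 of 14314 were called in these layer refits. The lowest member counts came without mouse 1 or 10 in WT, without mouse 4 in KO and without mouse 9 or 10 over both. In the same refits, Cox6b1 ranged from -0.0581 to 0.0481 and Atp5g3 from -0.0183 to 0.0854, both near 0 and not called. Atp5g3 was also at -3e-04 with a 10 CPM filter and at -0.0226 without endometrium of mice 3 and 13. Over both genotypes, leaving out 1 mouse ended the call of Cox4i2 for 9 of 14 mice, of Cox7a2 for 7, of Uqcrh for 4, of Cox4i1 for 3 and of Atp5c1 for 1 (mouse 8). In WT alone it ended the call of Ndufc1 for 5 of 7 mice, of Atp5k, Cox7c and Ndufb9 for 4 each, of Cox6a1 for 3, of Sdhd for 2 and of Atp5l for 1. In KO alone it ended the call of Uqcrq and Sdhd for 5 of 7 mice each, of Atp5g1, Atp5l, Cox5a and Uqcr10 for 3 each and of Ndufa4 for 2. Cox6a2 was called without mouse 8, whose endometrium held 3 of its 16 counts. Within mice 9 to 14, 1 member was called between genotypes in myometrium, against 0 in all mice.

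DESeq2 called 22, 16 and 33 members between the layers in WT, KO and both, beside 13.2%, 19.4% and 27.6% of all genes. RLE factors gave 17, 16 and 31, beside 1751, 2491 and 4048 of 13227, 12969 and 14314 genes. No filter gave 14, 14 and 28, beside 1764 of 16189, 2487 of 16127 and 4042 of 16911. A 10 CPM filter gave 20, 17 and 31, beside 1434 of 7746, 2020 of 7329 and 3308 of 8834. With 1 library per mouse there were 16, 14 and 28, beside 1642 of 13227, 2503 of 12969 and 3945 of 14314. A single fit of all groups gave 20, 15 and 29, beside 1882, 2406 and 4058 of 14822. Taking each mouse as a replicate block paired the layers of an animal and called 16, 18 and 27 members. Of all genes it called 1850 of 13227, 2776 of 12969 and 3838 of 14314. In the interaction it called 0 members and 10 of 14314 genes. Of the named members it moved Ndufc1 and Atp5k in WT and Uqcrh and Cox7a2 over both to an adjusted p above 0.05 and changed no other call that had been made. Leaving out endometrium of mice 3 and 13 was chosen after seeing the data. The depth limits Cox8b in endometrium and Cox6a2, whose counts were few. The cause of these changes was not tested.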

Other observations

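For many of these genes the mean level of whole uterus lay above that of both layers. The comparison was added after the levels had been seen. In both genotypes the mean CPM of 41 of 80 members was higher in uterus than in endometrium and in myometrium, beside 17.2% of 13890 genes. With edgeR over both genotypes, 33 of 80 members were higher and 0 lower in uterus than in endometrium, beside 5.35% of all genes higher and 3.54% lower. Against myometrium, 19 of 81 were higher and 2 lower, beside 15.7% of all genes higher and 12.1% lower.

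The median member log2 fold change was 0.38 against endometrium (all genes -0.05) and 0.20 against myometrium (all genes 0.02). With spike-in scaling these became 0.55 (all genes 0.18) and 0.75 (all genes 0.58), and 30 members were called higher against endometrium (5.53% of all genes) and 71 against myometrium (36.4% of all genes). In a fit that took each mouse as a replicate block, 39 members were higher than in endometrium, beside 6.52% of all genes. Against myometrium, 19 were higher and 2 lower in that fit, beside 14.5% and 11.9% of all genes. The uterus samples were pieces of whole horn and were not dissected, so handling and tissue cannot be told apart.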
